A study of Homo sapiens with 7 samples.

Results

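The genes described here encode the subunits of RNA polymerases I, II and III. They were chosen by symbol, as the protein-coding genes of GRCh38 whose symbols start with POLR1, POLR2 or POLR3, and they number 33 of 20033 protein-coding genes, with 8 for polymerase I, 15 for polymerase II and 10 for polymerase III. DNA binding of MYC and ATF4 at these genes was measured by ChIP-seq, the sequencing of DNA that an antibody pulls down with its target protein, in DLD-1, a standard human cell line from a colon adenocarcinoma. A peak was assigned to a gene when the centre of the peak lay inside the gene span or within 5 kb of it.

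All cells carried MycER, a MYC protein fused to the hormone-binding domain of the estrogen receptor, which a retrovirus had delivered and which 4-hydroxytamoxifen switches on. The groups were MYC in activated cells (2 libraries), ATF4 in activated cells (2 libraries) and ATF4 in control cells (2 libraries). Activated cells had 500 nM of 4-hydroxytamoxifen, control cells had vehicle, and chromatin was taken at 8 hr. For MYC, control cells were not analysed here, so its peaks have no unactivated counterpart, and the MYC antibody named in the labels does not tell MycER from the cells' own MYC. No group had the inducer without MycER, and an effect of the inducer cannot be told apart from activation of MYC. The labels do not say whether replicates were separate cultures or whether the infected cells were 1 clone, so a p-value over libraries measures only the spread between them, which may be technical. Peak lists carry no expression, and the cell line was not checked against markers.

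The nuclear RNA polymerases divide their work. Polymerase I makes the ribosomal RNA precursor in the nucleolus, polymerase II makes messenger RNAs, and polymerase III makes transfer RNAs and other short RNAs. Each is built on its own pair of large catalytic subunits, and some of the small subunits are shared between the enzymes. MYC is a transcription factor of cell growth that binds the E-box CACGTG together with its partner MAX and is known to raise the output of each of these polymerases. ATF4 is the transcription factor of the integrated stress response and turns on genes of amino acid supply.

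The promoter sequences below are windows at starts of the polymerase genes, which MYC peaks overlapped in part, in full or not at all. Each covers 250 bases before to 50 bases after a RefSeq start (RefSeq, GRCh38.p14), written 5′ to 3′ on the gene's strand, with CACGTG and the E-box variant CACGCG (on either strand, where it reads CGCGTG) in capitals. RefSeq sequences were matched by symbol for 24 of the 33 genes, with 30 starts in all. The genes not matched included POLR1E, POLR2G, POLR2I, POLR2J, POLR2J3, POLR2K, POLR3D and POLR3G. The first 5 are the promoters with the highest MYC peaks overlapping the window in both lists, up to 2 per polymerase.
POLR1B, chr2:112542215-112542514, plus strand: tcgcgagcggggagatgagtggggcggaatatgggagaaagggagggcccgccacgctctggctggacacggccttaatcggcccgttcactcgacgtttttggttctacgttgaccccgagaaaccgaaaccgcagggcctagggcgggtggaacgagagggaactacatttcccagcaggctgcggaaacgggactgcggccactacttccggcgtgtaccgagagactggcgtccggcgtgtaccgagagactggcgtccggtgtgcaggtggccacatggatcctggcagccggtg
POLR1C, chr6:43516839-43517138, plus strand: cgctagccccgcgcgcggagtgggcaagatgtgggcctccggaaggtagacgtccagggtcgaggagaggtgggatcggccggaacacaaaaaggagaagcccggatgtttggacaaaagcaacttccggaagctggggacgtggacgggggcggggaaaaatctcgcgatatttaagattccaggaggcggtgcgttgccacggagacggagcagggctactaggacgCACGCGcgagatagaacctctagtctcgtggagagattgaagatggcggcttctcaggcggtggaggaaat
POLR2H, chr3:184363111-184363410, plus strand: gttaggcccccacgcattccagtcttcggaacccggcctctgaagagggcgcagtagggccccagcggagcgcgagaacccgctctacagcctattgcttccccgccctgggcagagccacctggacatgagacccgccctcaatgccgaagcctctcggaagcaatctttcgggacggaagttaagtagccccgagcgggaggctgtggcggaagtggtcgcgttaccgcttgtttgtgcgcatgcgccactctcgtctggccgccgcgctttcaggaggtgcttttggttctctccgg
POLR2M, chr15:57706464-57706763, plus strand: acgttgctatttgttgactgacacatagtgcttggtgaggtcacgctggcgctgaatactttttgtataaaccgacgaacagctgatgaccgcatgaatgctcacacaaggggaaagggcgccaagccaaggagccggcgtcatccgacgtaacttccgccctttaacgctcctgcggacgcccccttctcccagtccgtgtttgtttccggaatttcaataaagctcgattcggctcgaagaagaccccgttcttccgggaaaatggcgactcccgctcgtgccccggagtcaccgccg
POLR3C, chr1:145824195-145824494, plus strand: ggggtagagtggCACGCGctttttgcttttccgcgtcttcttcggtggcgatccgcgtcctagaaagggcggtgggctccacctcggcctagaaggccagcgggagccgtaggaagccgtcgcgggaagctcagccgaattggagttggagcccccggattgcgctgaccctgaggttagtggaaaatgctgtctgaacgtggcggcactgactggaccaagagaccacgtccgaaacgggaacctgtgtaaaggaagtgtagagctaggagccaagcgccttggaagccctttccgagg

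The next 3 promoters are shown because their windows hold a CACGTG, which is the canonical MYC site. The POLR3E window also overlaps a leucine transfer RNA gene, TRL-AAG2-4, at chr16:22297140-22297221, so a gene for a polymerase III subunit starts beside a gene that polymerase III transcribes.
POLR1G, chr19:45406394-45406693, plus strand: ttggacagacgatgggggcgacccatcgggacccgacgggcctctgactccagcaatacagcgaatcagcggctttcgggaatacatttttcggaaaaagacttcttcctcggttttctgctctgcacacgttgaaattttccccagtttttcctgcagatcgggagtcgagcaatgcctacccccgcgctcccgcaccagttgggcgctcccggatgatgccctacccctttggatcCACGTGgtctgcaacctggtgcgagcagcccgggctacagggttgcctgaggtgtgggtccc
POLR3A, chr10:78029466-78029765, minus strand: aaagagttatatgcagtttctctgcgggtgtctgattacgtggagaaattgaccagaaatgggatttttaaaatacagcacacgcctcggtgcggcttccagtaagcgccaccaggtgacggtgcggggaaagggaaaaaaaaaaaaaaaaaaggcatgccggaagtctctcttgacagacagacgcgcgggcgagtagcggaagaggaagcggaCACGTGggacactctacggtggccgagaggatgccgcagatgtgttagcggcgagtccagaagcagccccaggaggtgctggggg
POLR3E, chr16:22297159-22297458, plus strand: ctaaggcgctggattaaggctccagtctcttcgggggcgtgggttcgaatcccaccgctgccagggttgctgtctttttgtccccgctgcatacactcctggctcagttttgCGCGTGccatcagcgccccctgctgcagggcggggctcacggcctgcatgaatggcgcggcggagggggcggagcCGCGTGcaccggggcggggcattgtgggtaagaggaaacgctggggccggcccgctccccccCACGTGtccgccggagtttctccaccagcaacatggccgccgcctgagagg

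MYC peaks lay at more of the polymerase genes than at protein-coding genes as a whole. A MYC peak was present in both lists at 17 of the 33 genes (51.5%), against 24.7% of all protein-coding genes by the same rule. By polymerase, these were 6 of 8 polymerase I genes (75.0%), 7 of 15 polymerase II genes (46.7%) and 4 of 10 polymerase III genes (40.0%), so that each polymerase stood above the share of all genes. The median gene span was 14.2 kb over the polymerase genes and 24.1 kb over all genes, and 11 of the 33 were longer than the median of all genes. Per polymerase the median span was 27.8 kb for I, which had the highest share, 6.88 kb for II and 19.5 kb for III. The part of gene length in the shares was not tested, nor was the order of the shares, since genes are not replicates.

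More genes were reached in the deeper library. The replicate 1 list, from 21.02 M tags, held 8636 MYC peaks and covered the same 17 polymerase genes (25.9% of all genes). The replicate 2 list, from 50.09 M tags, held 22532 peaks and covered 26 polymerase genes (78.8%), against 54.5% of all genes. In replicate 2 alone the shares of the polymerases lay closer together, with 7 of 8 for I (87.5%), 11 of 15 for II (73.3%) and 8 of 10 for III (80.0%). When peaks had to stand at least 8-fold over the background library, 11 polymerase genes stayed called in both lists, against 14.8% of all genes, with 5 of 8 for I, 3 of 15 for II and 3 of 10 for III.

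**Figure D1:**
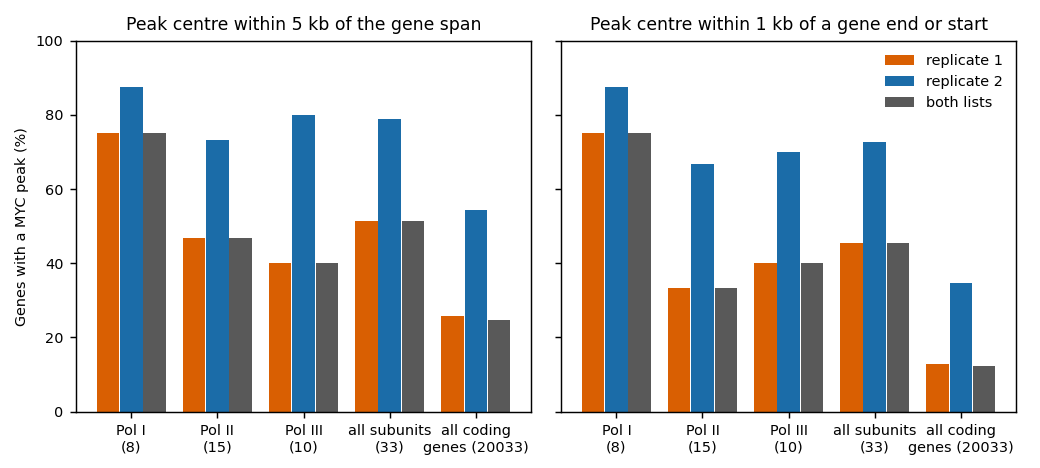
Bars give the percentage of genes with a MYC peak in replicate 1, in replicate 2 and in both lists, for each polymerase, all 33 subunit genes and all protein-coding genes, under the 5 kb rule (left) and within 1 kb of a gene end or start (right). For both lists polymerase I has the highest bar, at 75.0% in each panel, and each polymerase lies above all genes.

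Because a span of 5 kb on each side can reach a neighbour's promoter, the genes were counted again with peaks whose centre lay within 1 kb of a gene end or a RefSeq start, a rule chosen after the data were seen. Under it 15 genes remained, 45.5% of the polymerase genes against 12.2% of all genes, with 6 of 8 for polymerase I, 5 of 15 for polymerase II (33.3%) and 4 of 10 for polymerase III. The 2 genes that dropped out were POLR2F and POLR2L. The rule still admits peaks that lie beside a neighbour's start, as at POLR1A, POLR1B, POLR1C, POLR1G, POLR2I and POLR3C below. Replicate 1 alone gave the same 15 (12.9% of all genes), and replicate 2 alone gave 24 (72.7%), against 34.7% of all genes. The height of a peak is given below as the authors' normalized tag count, which counts tags per peak scaled to 10 M tags per library and is called tags.

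The catalytic subunits of polymerase I carried some of the higher MYC peaks of the set. POLR1B encodes the second-largest subunit, and its peak had 13.3 tags in replicate 1 and 26.9 in replicate 2 (20.1 ± 9.62, SD, n = 2). That peak stood 50 and 55 bp downstream of the second RefSeq start, in part over the sequence printed above. It ranked 62 of the 2451 genes called under the 1 kb rule. The start of a noncoding RNA, LOC105373562, lay 303 and 308 bp from the peak centres. POLR1A encodes the largest subunit, and its peak had 9.51 and 14.2 tags, 81 and 84 bp downstream of the start. It lay at the 79.8th percentile of called genes, and the neighbour PTCD3 started 430 and 433 bp from its centres. Replicate 1 listed another POLR1A peak of 7.13 tags, 568 bp upstream of the start and 219 bp from the start of PTCD3.

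POLR1C encodes a subunit of the assembly platform that polymerases I and III share. Its peak had 12.8 and 24.3 tags (18.55 ± 8.13, SD, n = 2), 58 and 57 bp downstream of the start, and ranked 92 of 2451. YIPF3 started 221 and 220 bp away on that stretch, so the peak cannot be given to POLR1C alone. POLR1D, the partner of POLR1C in the platform, had no MYC peak in either list. The paired subunits of the platform thus differed, with one near the top of the called genes and the other outside both lists.

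By the mean of both lists, the remaining called polymerase I genes had lower peaks, though POLR1G exceeded POLR1A in replicate 2. POLR1G encodes PAF49, a subunit found in polymerase I only, and its peak had 5.7 and 16.6 tags (11.15 ± 7.71, SD, n = 2). It was centred 3 and 10 bp upstream of the start, with PPP1R13L starting 280 and 273 bp away. By the authors' values it stood 49.39-fold and 71.71-fold over the background library. The higher POLR1C peak stood only 11.52-fold and 17.57-fold over background, so the fold did not follow height. POLR1E, which encodes PAF53, the partner of PAF49, had 5.7 and 7.98 tags, 141 and 104 bp inside one end of its span. Both PAF genes were called, and POLR1G was the higher in replicate 2. POLR1H encodes the subunit for RNA cleavage, and its peaks of 4.28 and 6.79 tags, 595 and 465 bp upstream of its RefSeq start, were the lowest called in the set, at the 16.0th percentile. POLR1F, a stalk subunit, had a peak in replicate 2 alone, of 5.99 tags and 8 bp from the start.

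**Figure D2:**
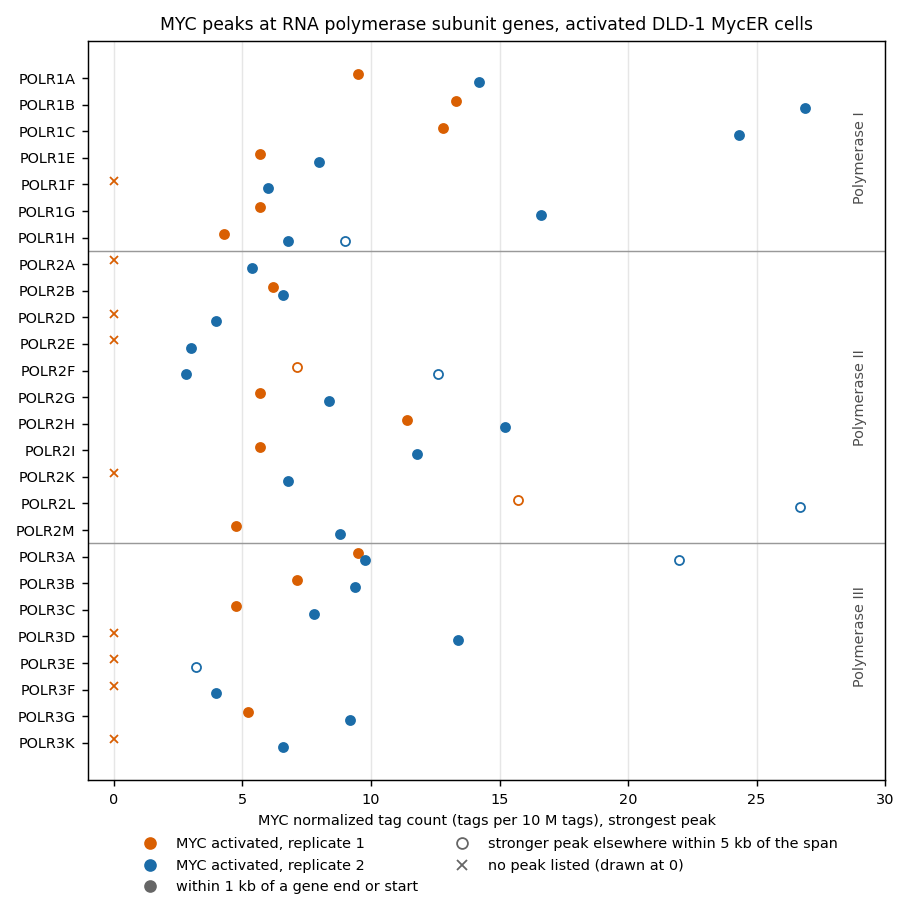
MYC normalized tag count (tags per 10 M) of the strongest peak at each of the 26 genes with a peak in at least 1 list, with filled points for peaks within 1 kb of a gene end or start, open points for a stronger peak elsewhere in the 5 kb window and crosses at 0 where a replicate listed no peak. Among filled points replicate 2 stands above replicate 1 at each of 15 genes, and POLR1B and POLR1C are the highest.

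In polymerase II the largest subunit was not called and the second-largest was. POLR2A carries the C-terminal domain that couples transcription to RNA processing, and it had MYC peaks in replicate 2 alone. The highest had 5.39 tags, 952 bp upstream of the start and 835 bp from the start of ZBTB4. Another had 5.19 tags, 56 bp downstream of the start and 173 bp from that of ZBTB4, but only 2.5-fold over the background library. POLR2B had 6.18 and 6.59 tags (6.385 ± 0.29, SD, n = 2), 150 and 135 bp downstream of the start. Its replicates lay close together, at the 27.9th percentile of called genes.

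The stalk subunits were split. POLR2G had 5.7 and 8.38 tags at one end of its span, at the 37.8th percentile of called genes. The authors' fold over background was 49.39 and 72.58, so as at POLR1G the fold did not follow height. A fold this high on a peak this low rests on few tags in the background library. POLR2D, its partner in the stalk, had a single peak of 3.99 tags in replicate 2, 358 bp from the start. POLR2I, a subunit related to RNA cleavage, had 5.7 and 11.8 tags at a peak 238 and 178 bp outside its span. That peak lay nearer to TBCB, whose start was 146 and 86 bp away. POLR2M encodes Gdown1, a protein that binds the polymerase, and had 4.75 and 8.78 tags, 94 and 133 bp upstream of the start.

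No MYC peak was listed at POLR2C or POLR2J, which encode paired subunits of the assembly platform of polymerase II, nor at POLR2J2 and POLR2J3. The last 2 are near-identical copies of POLR2J, and how reads that map to more than 1 place were counted is not given in the sources used here, so their lack of a peak is uncertain. Among POLR1C, POLR1D, POLR2C and POLR2J, POLR1C was the one with a called peak.

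The subunits shared between polymerases were called in 4 of 7 cases under the 5 kb rule (57.1%) and in 2 of 7 under the 1 kb rule. Counted in every polymerase they belong to, they changed the shares to 9 of 13 for I (69.2%), 7 of 15 for II (46.7%) and 8 of 17 for III (47.1%). Of those found in all 3 enzymes, POLR2H had the highest peak at its own start, with 11.4 and 15.2 tags (13.3 ± 2.69, SD, n = 2). It stood 111 and 99 bp downstream of the second RefSeq start and at the 85.6th percentile.

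POLR2L and POLR2F, also shared by all 3 enzymes, were called through peaks that lay nearer to other genes. At POLR2L a peak of 15.7 and 26.7 tags lay 1457 and 1495 bp upstream of the start and 119 and 81 bp from the start of TSPAN4. Another peak of 10.9 and 20.2 tags lay 1051 and 1039 bp past the other end of the gene. At POLR2F a peak of 7.13 and 12.6 tags lay 80722 and 80683 bp into the gene and 193 and 154 bp from the start of the antisense gene POLR2F-AS1. Near the POLR2F start replicate 2 listed a peak of 2.79 tags, 56 bp from a start of C22orf23. POLR2E and POLR2K had peaks in replicate 2 alone, of 2.99 and 6.79 tags.

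In polymerase III both catalytic subunits were called, and their replicates lay close together. POLR3A, the largest subunit, had 9.51 and 9.78 tags (9.645 ± 0.191, SD, n = 2), 427 and 475 bp upstream of the start. Replicate 2 listed another POLR3A peak of 8.58 tags, 51 bp upstream of the start. A further peak of 9.51 and 22.0 tags in the 5 kb window lay 85 and 104 bp from the start of RPS24, a ribosomal protein gene. POLR3B, the second-largest subunit, had 7.13 and 9.38 tags (8.255 ± 1.59, SD, n = 2), 138 and 88 bp downstream of the second RefSeq start.

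The initiation subcomplex of polymerase III takes part in promoter opening and comprises POLR3C, POLR3F and POLR3G or its paralog POLR3GL. POLR3G had 3 separate MYC peaks in both lists, with 5.23 and 8.58 tags, 5.23 and 7.98 tags, and 4.75 and 9.18 tags, all within 1 kb of one end of the gene. The first of them lay 236 and 212 bp outside the span. Another protein-coding gene, MBLAC2, was also within 1 kb of each of the 3, so they cannot be given to POLR3G alone. The paralog POLR3GL had no MYC peak in either list. POLR3C had 4.75 and 7.78 tags, the first 54 bp upstream of the second RefSeq start and the other 71 bp downstream of the first, with RNF115 starting 296 and 176 bp away. POLR3F had 3.99 tags in replicate 2 alone, 147 bp from the start, with DZANK1 starting 507 bp away.

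Among the other polymerase III genes, POLR3D and POLR3E encode the pair that resembles the general factor TFIIF. POLR3D had 13.4 tags in replicate 2, 207 bp inside one end of the gene, and no peak in replicate 1. Of the replicate 2 peaks within 10% of that height, 645 of 717 (90.0%) overlapped a replicate 1 peak, so POLR3D was among the few that did not. POLR3E had 3.19 tags in replicate 2 alone, 24103 bp from the start, and none at the transfer RNA gene by its promoter. POLR3K, the subunit for RNA cleavage, had peaks in replicate 2 alone, with 6.59 tags 613 bp from the start and 2.99 tags 27 bp from it. The neighbour SNRNP25 started 833 and 247 bp from these peaks.

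For the other 8 genes with a peak in replicate 2 alone, replicate 1 often missed peaks of like height. The share of replicate 2 peaks within 10% of the same height that overlapped a replicate 1 peak ran from 1.44% for POLR2E to 36.7% for POLR2K. The lowest peak in the replicate 1 list had 3.8 tags. POLR2E and POLR3E were below that value, and POLR2D and POLR3F were just above it with 3.99 tags. No MYC peak was listed in either replicate at POLR1D, POLR2C, POLR2J, POLR2J2, POLR2J3 or POLR3GL.

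Compared with the other called genes, the polymerase genes were called often but their peaks were of ordinary height. Under the 1 kb rule the mean of both replicates had a median of 8.26 tags over the 15 called polymerase genes, against 8.02 tags over all 2451 called genes. Of the 15, 8 stood above the median of all called genes, and POLR1B and POLR1C stood highest, at percentiles 97.5 and 96.2 of the called genes. By polymerase the median was 11.5 tags for I, 7.04 tags for II and 7.73 tags for III. Replicate 2 had the higher value at 15 of 15 polymerase genes, with a median ratio to replicate 1 of 1.59 (1.03 to 2.91), and at 2190 of all 2451 called genes, with a median ratio of 1.51.

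**Figure D3:**
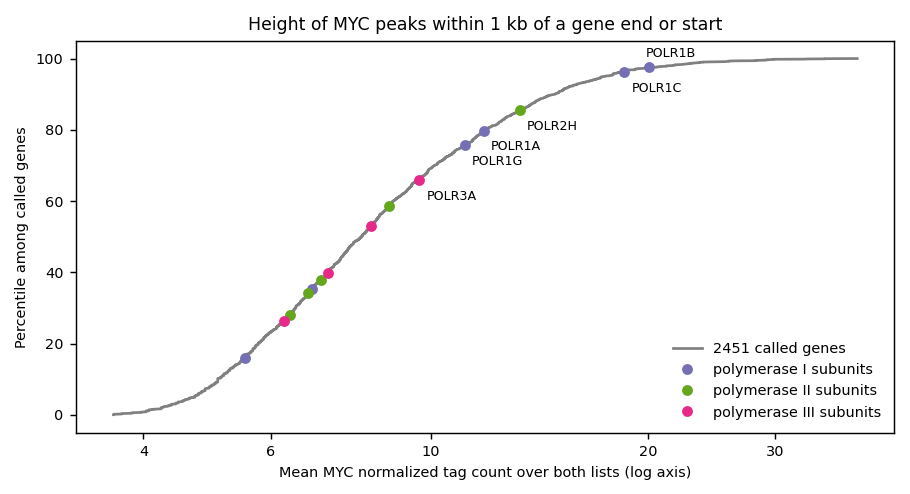
Mean MYC normalized tag count over both lists (log axis) against the percentile among the 2451 genes called under the 1 kb rule. The grey line is all called genes and the points are the 15 polymerase genes, of which POLR1B (percentile 97.5) and POLR1C (percentile 96.2) lie highest.

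Most called genes with a RefSeq start had a MYC peak close to it. The called genes POLR1E, POLR2G, POLR2I and POLR3G had no matched start and are not counted here. These distances were not set beside those of all called genes. Of the 13 called genes with a RefSeq start, 9 had a MYC peak centre within 250 bp of it in both lists, 10 within 500 bp and 11 within 1000 bp. The exceptions at 1000 bp were POLR2F and POLR2L. Of the 7 genes with a start and a peak in replicate 2 alone, 4 had a peak centre within 250 bp and 6 within 1000 bp, the exception being POLR3E. Overlapping peaks of both lists formed 21 regions at the 17 genes, with 6 for polymerase I, 8 for polymerase II and 7 for polymerase III.

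**Figure D4:**
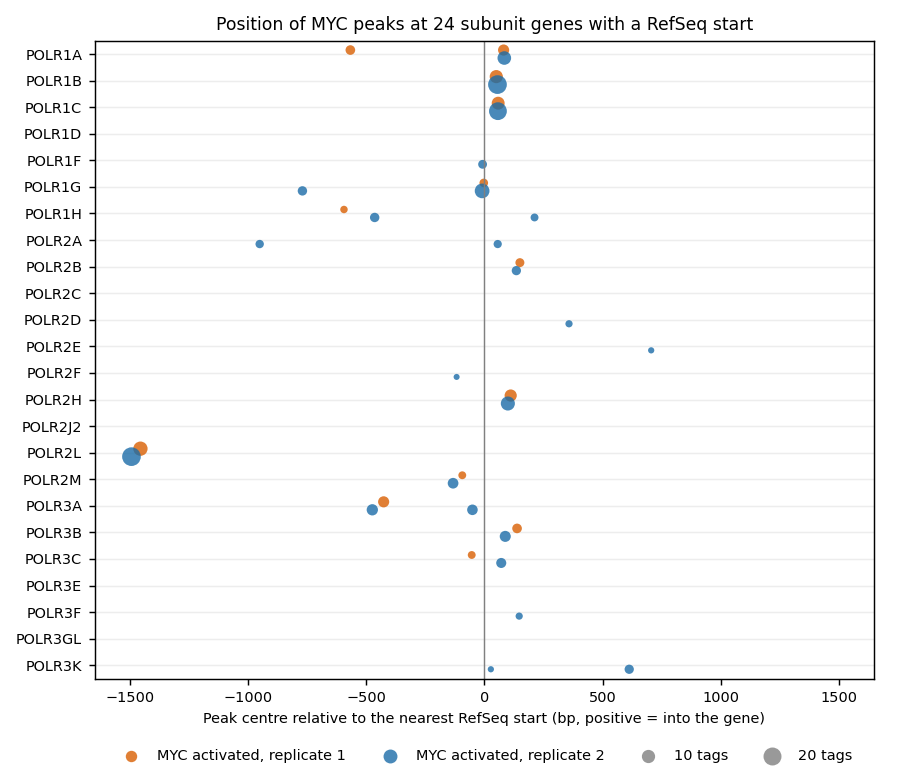
Distance of each MYC peak centre from the nearest RefSeq start of the gene, in bp along the gene's strand, with a row for each of the 24 genes with a start, a colour per replicate and an area that grows with the tags. Peaks beyond the axis are not drawn. The POLR1B, POLR1C and POLR2H peaks lie within 111 bp downstream of a start, and those of POLR2L lie 1457 and 1495 bp upstream.

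Promoter windows of the polymerase genes were overlapped by MYC peaks of both lists in 7 of 30 cases (23.3%), against 3.67% of 22198 promoters of protein-coding genes. CACGTG, which reads the same on both strands, was in 4 of the 30 windows (13.3%), at POLR1G, POLR3A, POLR3C and POLR3E, against 8.34% of coding promoters and 7.26% of all 35116 promoters. CACGCG, searched on both strands, was in 10 of the 30 windows (33.3%), from 9 genes, against 14.2% of coding promoters and 11.4% of all. A match of CACGCG cannot overlap a match of CACGTG, since their ends differ. The ATF4 response element core TGATGCAA was in 0 of the 30 windows and in 0.676% of coding promoters, with both strands searched.

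Among the polymerase genes CACGTG was in 1 of the 7 windows overlapped by MYC peaks of both lists, that of POLR1G, and in 3 of the 23 others. Over all coding promoters it was in 205 of 814 that such peaks overlapped (25.2%) and in 1646 of 21384 others (7.7%), so in the whole table the E-box was more common under the peaks, while the polymerase windows were too few to compare. In the POLR1G promoter printed above, the first base of CACGTG lies 12 bp before the start. The E-box lay inside the peak in both lists, 6 bp from the peak centre in replicate 1 and 0 bp from it in replicate 2.

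The other E-boxes were farther from the called peaks. In the POLR3A promoter the first base of CACGTG lies 35 bp before the start, inside a replicate 2 peak whose centre was 18 bp away, while the nearest replicate 1 peak centre was 394 bp away. The POLR3C E-box lies 196 bp before its first RefSeq start, in a window other than the one printed, and 384 and 264 bp from the nearest peak centres. The POLR3E E-box begins 1 bp before the start, and no MYC peak centre was closer than 24102 bp. The printed promoters of POLR1B, POLR2H and POLR2M hold neither CACGTG nor CACGCG, although peaks of both lists overlapped them. The POLR1B and POLR2H peaks ran past the end of the window, POLR2H for most of its width. The sequence beyond the window was not read.

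In activated cells ATF4 peaks were about as rare at the polymerase genes as at all genes. Each ATF4 peak found within 5 kb was at a polymerase III gene of activated cells, in a single library. With a 10 kb window, control replicate 1 also had 1 polymerase gene with an ATF4 peak. The number of polymerase genes with an ATF4 peak was 1 and 2 in activated cells (3.59% and 6.60% of all genes) and 0 and 0 in control cells (2.50% and 4.59% of all genes). This made 1.5 ± 0.707 genes in activated cells and 0 ± 0 in control cells (SD, n = 2), with p = 0.33 when libraries were compared by an exact permutation test (two-sided), which is the smallest value the design allows. As a share of the set, 3.03% and 6.06% of the polymerase genes had a peak in activated cells, which is near the share of all genes in the same lists. Within replicate numbers, the difference was 1 gene for replicate 1 and 2 genes for replicate 2.

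The ATF4 peaks did not recur between libraries. POLR3D had 5.21 tags in activated replicate 1, where the median peak had 4.81 tags, 4.51-fold over background and 1287 bp inside one end of the gene. POLR3B had 3.42 tags in activated replicate 2, 22458 bp from the nearest start, and POLR3C had 3.62 tags in the same library, equal to its median peak, 2095 bp from the nearest start and 3.13-fold over background. In height they were thus middling peaks of their lists. No polymerase gene had an ATF4 peak in both activated lists (1.41% of all genes), and 3 had one in either (8.79% of all genes). The lists had different floors, with lowest peaks of 3.21 and 2.81 tags in activated cells and 4.46 and 2.98 tags in control cells. With peaks under 4.46 tags left out of every list, activated cells kept 1 and 0 polymerase genes and control cells 0 and 0.

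At POLR3B and POLR3C the ATF4 peak shared the gene with a MYC peak called in both lists, which made 2 of 33 genes (6.06%) against 4.10% of all genes. When a fold over background of 4 or more was required, POLR3B alone remained. POLR3D had MYC in replicate 2 alone. None of the 105 regions with an ATF4 peak in all 4 lists lay at a polymerase gene, so ATF4 signal at these genes was not compared between activated and control cells.

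The factors that work with the polymerases were set beside the subunits, from lists written from textbook knowledge. Beside these factors, the 62 listed genes hold 4 polymerase subunits and relatives outside the symbol rule, of which 3 were called. Those 4 are counted in every total of the factor genes. MYC peaks were in both lists at 22 of the 62 listed genes (35.5%), against 24.7% of all genes. By list these were 4 of 7 initiation and termination factors of polymerase I (57.1%), 5 of 18 general initiation factors of polymerase II (27.8%), 5 of 16 initiation factors of polymerase III with its repressor MAF1 (31.2%) and 5 of 17 elongation factors of polymerase II (29.4%). Replicate 2 alone covered 52 of the 62 genes (83.9%), against 54.5% of all genes. Within 1 kb of a gene end or start the count was 16 of 62 (25.8%), against 12.2% of all genes. By list it was 2 of 7 (28.6%), 4 of 18 (22.2%), 4 of 16 (25.0%) and 3 of 17 (17.6%) in the same order, so the polymerase I factors no longer stood apart from the rest.

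In the 5 kb window the polymerase I factor with the highest peak was TAF1B, a subunit of the promoter selectivity factor SL1, with 17.6 and 20.2 tags, followed by TAF1D of the same factor with 7.61 and 15.6 tags. In the polymerase III list they were GTF3C2, a subunit of TFIIIC, with 7.61 and 21.8 tags, and BRF1, a subunit of TFIIIB, with 8.08 and 18.0 tags. Among factors called in both lists, the general factors of polymerase II were lower. GTF2A1 led them with 7.13 and 8.38 tags, then GTF2H4 with 5.7 and 7.98 tags, while GTF2H1 had 11.4 tags in replicate 2 alone. The elongation factors of polymerase II called in both lists were also lower. They were led by CCNT1, the cyclin of the pause-release kinase, with 6.65 and 10.8 tags. NELFB, of the pausing factor NELF, followed with 7.61 and 7.98 tags. The peaks given for TAF1B, BRF1 and NELFB were not within 1 kb of an end or start of those genes.

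Of 4 related genes outside the symbol rule, 3 had a MYC peak in both lists. The mitochondrial factors TFAM and TFB2M had 5.7 and 12.6 tags and 5.7 and 11.8 tags. CRCP, a polymerase III subunit with another kind of symbol, had 7.13 and 9.18 tags, and POLRMT, the mitochondrial polymerase, had 7.98 tags in replicate 2 alone (both named after their values were seen). Of the 62 genes, 0 had an ATF4 peak in both activated lists, against 1.41% of all genes. Single libraries had 3 and 3 of them in activated cells (4.84% each) and 1 and 3 in control cells (1.61% and 4.84%), near the shares of all genes given above.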

How the data were processed

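DNA binding of MYC and ATF4 was profiled by ChIP-seq in DLD-1 MycER cells, with groups and replicate numbers taken from the labels. Per the submitters' processing notes, Bowtie 0.12.9, HOMER and hg38 were used, with settings not given in the sources used here. Per the file headers, each list was called per library with HOMER against a background library that is not named, and the 1 IgG sample entered only if it was that library. The authors scaled the normalized tag count, a signal, to 10 M tags. The deposited lists also hold the total tags per peak (a count in replicate 1, scaled in replicate 2), a focus ratio (a fraction), a score, a fold over background and a p-value, all of them the authors' values and used to describe or filter peaks.

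Depth, read from the steps between low tag counts, was 21.02 to 24.94 M tags in replicate 1 libraries and 49.77 to 50.31 M in replicate 2 libraries, and follows the replicate number. Gene spans and starts were those of RefSeq GRCh38.p14, the build of the files. A gene was called when both lists of a factor had a peak centre within 5 kb of its span. Counts of genes are descriptions, set beside the share of all 20033 genes, and only the number of genes with an ATF4 peak per library was tested (scipy 1.17.1, exact permutation). The assignment of peaks to genes was tested on simulated peaks. Of the planned tests, limma was not run, because no region at a polymerase gene had an ATF4 peak in all 4 lists. Every polymerase gene is in the counts, 1 is not reported by name here, and values are given for those with a MYC peak in both lists or any ATF4 peak, and at most the 2 highest genes are named per factor list. Promoters holding CACGTG were added to those shown after the data were seen. The genes, lists and rules were chosen with earlier results of these data known. Alternatives were other windows, fold minimums, a common lowest tag count, any overlap, and leaving out each replicate.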

Additional observations from a re-analysis of the deposited data

How the results depend on the processing

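Of 81 alternatives, 66 left the count within 1.5 times its value or the ATF4 difference with its sign and side of the threshold. For ATF4 the side could not change, since the exact permutation test could give no p below 0.33. The ATF4 alternatives are all among the 66, and for them only the sign could vary. Accepting a MYC peak in at least 1 list gave 26 polymerase genes, with 11 for polymerase II and 8 for polymerase III, and 53 of the 62 factor genes. Of all genes 55.8% were then called. A fold over background of at least 8 left 11 polymerase genes, 3 for polymerase II and 12 of the 62 factor genes, against 14.8% of all genes. A fold of at least 4 left 1 gene with both MYC and ATF4. With peak centres inside the span, 4 of 15 polymerase II genes and 12 of the 62 factor genes remained, against 16.1% of all genes. Counting shared subunits in each enzyme gave 8 for polymerase III. Leaving out a MYC replicate gave 17 to 26 polymerase genes in all, 6 to 7 for polymerase I, 7 to 11 for polymerase II, 4 to 8 for polymerase III and 23 to 52 factor genes, the higher value each time without replicate 1. The share of all genes was 25.9% without replicate 2 and 54.5% without replicate 1. Fewer peaks enter under the stricter rules and more under the looser ones, by construction.

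The ATF4 difference of 1.5 genes ranged from 1.0 to 2.0 when a replicate was left out, and from 0.5 to 1.5 under the other settings. With the replicate number as a block it was 1.5 (exact permutation within numbers, p = 0.5, the smallest possible). Same-numbered ATF4 libraries had a correlation of 0.10 in their deviations over the 105 common regions, with 2 pairs only, so the numbers were not taken to pair the samples. Depth limits the lists: a gene without a peak had none that passed the authors' limits, on height, on the comparison with background (0.05 for p) and on the excess over neighbouring sequence (4-fold), and this is not the same as no binding. Merging peaks only where they shared 50% of the shorter peak gave 19 regions in place of 21.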
